A study of Mus musculus with 9 samples.

Results

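The genes described here are the keratin-associated protein genes of mouse skin. They are the rows whose gene name starts with Krtap and whose reads, summed over the 9 libraries, reach 10 or more. This rule kept 31 of 40 Krtap rows, out of 29205 genes in the deposited table. The 31 members were sorted by the family number that follows Krtap into a high cysteine class (28 genes, 15 families) and a high glycine-tyrosine class (3 genes, 3 families). RNA was sequenced from the back skin of male BALB/c mice aged 6 to 8 weeks, with 3 libraries in each of 3 groups. Every mouse had its back shaved and treated with depilatory cream before the experiment, the control group included, and skin was taken on day 13. The control group received no imiquimod. The IMQ group received 62.5 mg of 5% imiquimod cream a day on the back for 5 consecutive days, which gives psoriasis-like lesions. The LYS group received the same cream and also Longkui Yinxiao soup, a herbal decoction given by gavage, at the higher of the study's doses. The skin was taken whole, so the libraries hold RNA of epidermis, hair follicles, dermis, fat and muscle. Library totals ran from 17149506 to 19609878 counted reads in the controls, from 16915191 to 17988104 in IMQ and from 14658645 to 16743869 in LYS.

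Keratin-associated proteins are small proteins of the hair shaft. They fill the space between the keratin filaments of the cortex and cuticle, and the cysteine-rich ones bind those filaments through disulfide bonds. The genes are switched on late, in the cells that leave the hair matrix to build the shaft, and only while a follicle is growing hair. Glycine-tyrosine-rich members belong mainly to the cortex, and members of families 5, 10 and 12 are known mainly from the cuticle.

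The class names, given here by family number, can be set beside the coding sequences. The stretches below are the 30 consecutive codons richest in cysteine, or in glycine and tyrosine, of the most abundant member of each class and of the member with the largest share of cysteine codons. They are shown 5′ to 3′ from the GENCODE M21 transcripts (GRCm38). The capitals mark cysteine codons in Krtap11-1 (chr16:89570875-89570964, minus strand) and in Krtap28-10 (chr1:83042208-83042297, minus strand), and glycine and tyrosine codons in Krtap8-1 (chr16:89487770-89487859, minus strand).
Krtap11-1: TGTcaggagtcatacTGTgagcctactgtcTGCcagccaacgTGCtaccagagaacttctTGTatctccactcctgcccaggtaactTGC
Krtap28-10: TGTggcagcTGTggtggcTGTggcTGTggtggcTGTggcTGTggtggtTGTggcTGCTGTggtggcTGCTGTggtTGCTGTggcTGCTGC
Krtap8-1: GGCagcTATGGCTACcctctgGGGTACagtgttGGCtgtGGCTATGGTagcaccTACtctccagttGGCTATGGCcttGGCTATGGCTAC
In Krtap8-1, 18 of the 30 codons were for glycine or tyrosine. In Krtap28-10, 15 of 30 were for cysteine, and in Krtap11-1 only 6 of 30.

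Over whole coding sequences, cysteine took 8.47% to 42.9% of the codons of the 28 high cysteine members (median 30.4%). Glycine and tyrosine together took 29.9% of codons in Krtap7-1, 47.5% in Krtap8-1 and 62.7% in Krtap22-2, the 3 members of the other class. Family number and composition gave the same class for 28 of 31 members. The exceptions were Krtap13-1, Krtap24-1 and Krtap26-1, which are counted as high cysteine by family but had more glycine and tyrosine codons than cysteine codons. All 3 lie on chromosome 16 beside the glycine-tyrosine members. The coding sequences were short, from 61 to 502 codons (median 168), and each of the 31 genes had 1 exon in the annotation.

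**Figure D1:**
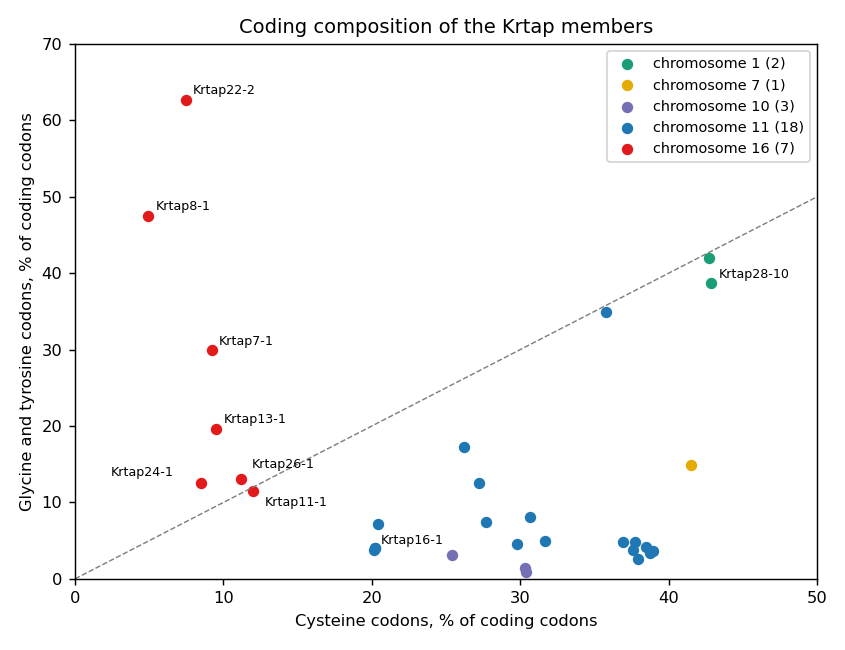
Each point is a Krtap member, placed by the percentage of its codons that are for cysteine (x axis) and for glycine or tyrosine (y axis), and coloured by chromosome, with the number of members in brackets. The dashed line marks equal shares. Each of the 7 members on chromosome 16 has a smaller share of cysteine codons than any of the 18 on chromosome 11, where the lowest share is 20.1%.

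The members sat in clusters. Chromosome 11 held 18 of them, from 7 families, within 99550130 to 99993994 (GRCm38). Chromosome 16 held 7, between 88610705 and 89571183, chromosome 10 held 3, chromosome 1 held 2 and chromosome 7 held 1. Some members were near copies. The coding sequences of Krtap3-2 and Krtap3-3 were identical over all 297 bases, and those of Krtap4-1 and Krtap4-2 were 95.5% identical. Stretches of 100 bases shared with a transcript of another gene were found in 12 members, at up to 38.9% of the stretches of Krtap10-10. Reads from such stretches cannot be given to a gene with certainty, so the split between near copies is uncertain. Krtap12-1, Krtap10-4 and Krtap10-10 also lie within the bounds of Tspear, and Krtap24-1 overlaps Gm49688 on the other strand.

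The bases just before the start of transcription are shown for the most abundant member of each class and for the pair with identical coding sequences, because the members fell together in the comparisons below. Each line gives the 120 bases before the RefSeq start (GRCm38.p6), 5′ to 3′ on the gene's strand. Capitals mark matches to the letters TATAAA (a form of the TATA box), CTTTGA (the core of a LEF1/TCF site) or CAATAAA (a posterior HOX site) on either strand. The stretches are chr16:89571184-89571303 for Krtap11-1, chr16:89487953-89488072 for Krtap8-1, chr11:99556854-99556973 for Krtap3-2 and chr11:99550864-99550983 for Krtap3-3, all on the minus strand.
Krtap11-1: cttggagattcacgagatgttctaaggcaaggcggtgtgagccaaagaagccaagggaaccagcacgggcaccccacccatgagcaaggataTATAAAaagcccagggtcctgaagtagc
Krtap8-1: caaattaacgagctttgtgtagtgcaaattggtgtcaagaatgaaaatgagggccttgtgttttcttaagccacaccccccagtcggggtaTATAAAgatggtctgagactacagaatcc
Krtap3-2: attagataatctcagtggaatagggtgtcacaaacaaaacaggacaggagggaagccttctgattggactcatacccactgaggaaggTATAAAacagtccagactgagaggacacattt
Krtap3-3: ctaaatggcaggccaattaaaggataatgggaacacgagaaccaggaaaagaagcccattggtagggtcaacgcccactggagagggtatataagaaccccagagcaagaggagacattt
TATAAA began 28 bases before the start in Krtap11-1, 29 in Krtap8-1 and 32 in Krtap3-2. Of the 31 members, 25 had a promoter entry of 250 bases before and 50 after the start. TATAAA was present on either strand in 24 of these 25 (96.0%), against 13.6% of all 32817 promoter windows of this length. On the gene's own strand and between 45 and 16 bases before the start, a window chosen after the matches were seen, it was present in 20 of 25 (80.0%), against 2.14% of all windows. Krtap3-3 was the member without these letters, but its stretch above holds tatataag. Only the exact letters were searched, so a TATA box spelled otherwise would be missed. CTTTGA was found in 8 of 25, against 5251 of the 32817 windows, and CAATAAA in 0 of 25, against 4.60% of windows. TATAAA and CAATAAA end in the same letters, ATAAA, but a match of one is never a match of the other. A match is a run of letters, not a shown binding site. The 250 bases before the start were 53.8% identical between Krtap3-2 and Krtap3-3, beside the identical coding sequences.

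In control skin, the members covered a wide range of low levels. Per length, as FPKM (reads scaled to gene length and library total), mean control levels ran from 0.202 in Krtap10-10 to 12.1 in Krtap8-1, with a median of 0.617. The 3 glycine-tyrosine genes took 57.3%, 33.8% and 37.5% of the summed FPKM of the 31 members in control libraries 1, 2 and 3. Thus the most abundant transcripts per length were Krtap8-1 at 12.1 ± 6.65 FPKM (SD, n = 3), Krtap7-1 at 6.91 ± 3.53 FPKM and Krtap22-2 at 5.03 ± 2.63 FPKM.

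Krtap8-1 was counted at 157, 50 and 164 reads in control libraries 1, 2 and 3. Krtap7-1 was counted at 87, 37 and 106 reads, and Krtap22-2 at 53, 22 and 25. In all 3 genes control library 2 was the lowest.

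Among the high cysteine members, Krtap11-1, Krtap13-1, Krtap17-1 and the genes of family 3 were the highest per length. Krtap11-1 was counted at 43, 45 and 119 reads in the controls (3.84 ± 2.64 FPKM). Krtap13-1 was counted at 23, 14 and 66 reads (2.59 ± 2.23 FPKM). Both stood well above the other libraries in control library 3.

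Family 3 showed the spread within a family. Krtap3-1 was counted at 13, 26 and 71 reads in control libraries 1, 2 and 3. Krtap3-2 was even, at 44, 44 and 51 reads (2.47 ± 0.368 FPKM), and Krtap3-3 was counted at 26, 27 and 39. Krtap17-1, the only member of its family, was counted at 47, 29 and 39 reads (2.78 ± 0.754 FPKM).

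The 3 members of family 1 were led per length by Krtap1-4 (7, 11 and 34 control reads). The pair of family 9 was led by Krtap9-3 (17, 17 and 41 reads). Family 4 was the largest, with 7 members that together gave 48, 52 and 98 reads and 3.74 ± 1.78 FPKM, or 6.73% of the summed control level. Its leading gene was Krtap4-1 (11, 10 and 30 reads). In these 3 families of the chromosome 11 cluster, control library 3 gave the highest summed count.

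The other families were sparse. Krtap24-1 was counted at 18, 16 and 34 reads in the controls, Krtap16-1 at 20, 8 and 20, and Krtap26-1 at 4, 10 and 8. Krtap28-10 was counted at 10, 0 and 15 reads and was the only member with a control library at 0. The cuticle families gave few reads: Krtap12-1 had 6, 3 and 11, Krtap5-5 had 7, 1 and 13, and Krtap10-4 had 5, 8 and 11. At the edge of the rule, Krtap2-4 with 2, 2 and 6 reads was just inside, and Krtap29-1 with 0, 2 and 5 reads was just outside.

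Control libraries differed together. The 31 members summed to 675, 468 and 1055 reads in control libraries 1, 2 and 3, which is 32.6, 21.6 and 51.4 CPM (counts scaled to the effective library size). Library 3 was the highest control library for 26 of 31 members in CPM, and library 2 was the lowest for 20. The classes differed in which library stood apart. The glycine-tyrosine genes together were level in libraries 1 and 3 (14.4 CPM each) and low in library 2 (5.04 CPM), while the high cysteine genes were close in libraries 1 and 2 (18.3 and 16.6 CPM) and high in library 3 (37.0 CPM). These are descriptions of 3 libraries, with no test.

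**Figure D2:**
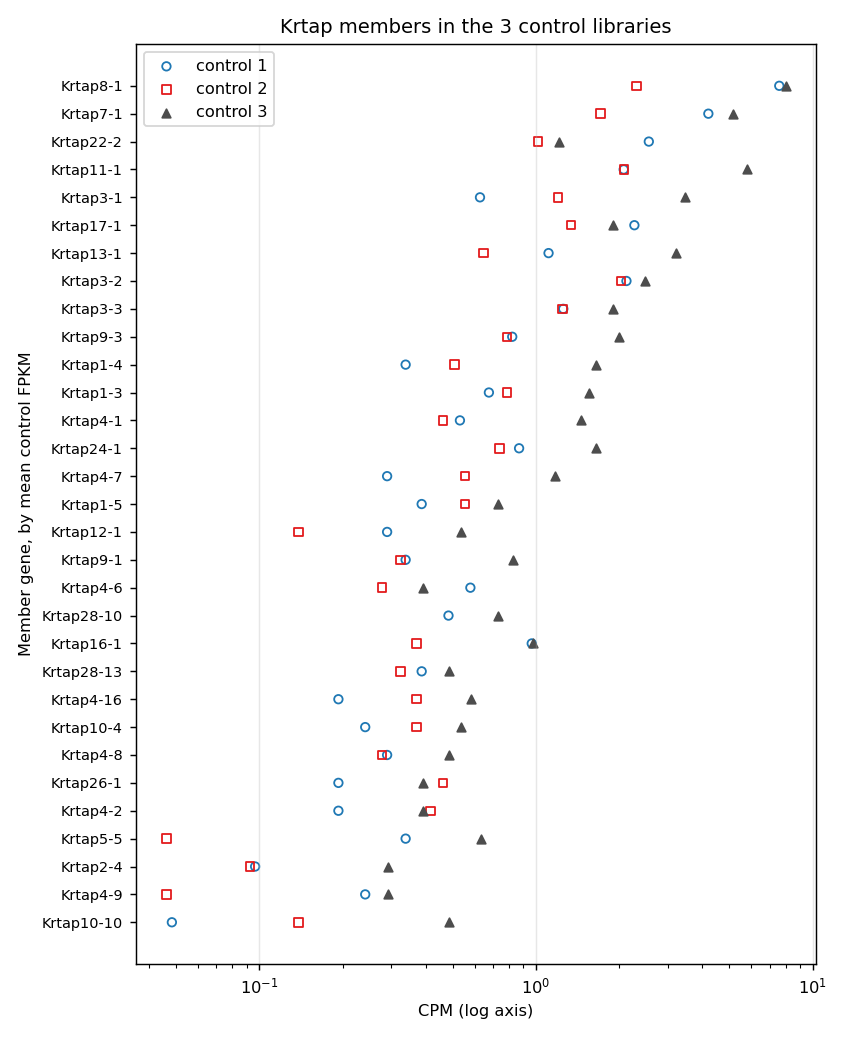
Each row is a Krtap member, ordered by mean control FPKM, and the points give its level in CPM (log axis) in control libraries 1, 2 and 3. Library 3 lies farthest right for 26 of 31 members, and Krtap28-10 in library 2 is at 0 and is not drawn.

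IMQ skin was compared with control skin to ask how the hair shaft genes stood under imiquimod. Reads on the members were nearly absent. The 31 members summed to 10, 4 and 11 reads in IMQ libraries 1, 2 and 3, against 468 to 1055 in the controls, or 0.570 ± 0.256 CPM against 35.2 ± 15.1 CPM (SD, n = 3). The control mean was 61.7 times the IMQ mean in CPM and 114 times in FPKM. That ratio was set by Krtap3-2: the other 30 members summed to 2059 control reads and 3 IMQ reads, a 475-fold difference by pooled reads (exact 95% counting interval 162 to 2310). All 3 of these reads came from IMQ library 1. All 3 IMQ libraries lay below all 3 controls.

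Of the 31 members, 29 had 0 reads in every IMQ library. Among all 21488 genes with 10 or more summed reads, 2.41% had 0 reads in every IMQ library. Since low genes pass the rule only through the group where they are counted, the 9 Krtap rows below 10 reads were also checked: they held 31 reads in the controls and 1 read, on Krtap5-4, in the other 6 libraries. For 30 of 31 members all control values were above all IMQ values, where 30.2% of the 21488 genes were ordered that way. The member left over was Krtap28-10, through its control library at 0.

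**Figure D3:**
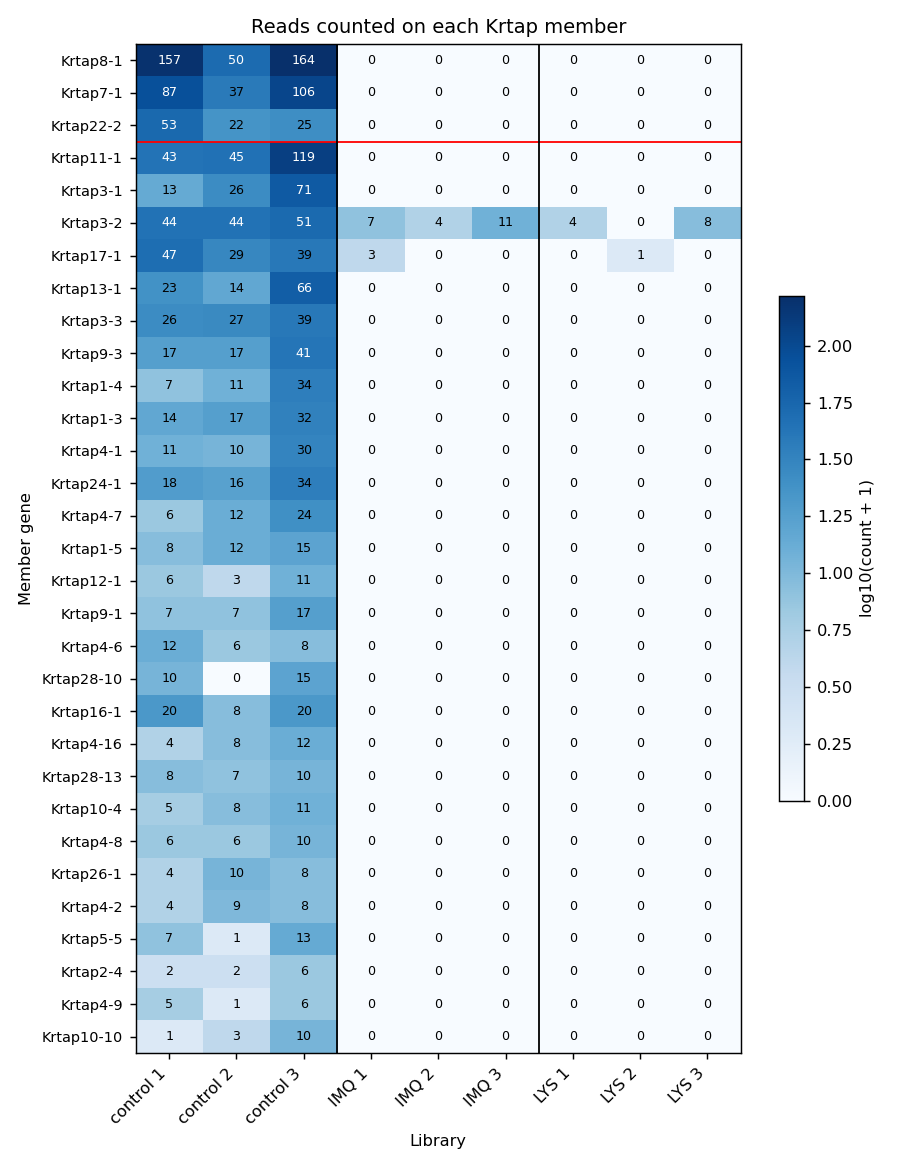
Reads counted on each Krtap member (rows) in each library (columns), with the count printed in the cell and shaded on a log10(count + 1) scale. The glycine-tyrosine genes are above the red line, and black lines separate the groups. Outside the controls, reads appear in Krtap3-2 and Krtap17-1 only.

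For members at 0, the fold change is a lower bound, computed against a limit of 3 reads over the 3 libraries of the group. This limit covers counting error only. Against the controls, Krtap8-1 in IMQ skin was lower by at least 85.6-fold, Krtap7-1 by at least 53.1-fold, Krtap11-1 by at least 47.8-fold and Krtap22-2 by at least 23.1-fold. Over the 29 members at 0 the bound ran from 2.31 to 85.6, and its order follows the number of control reads. The smallest bound was that of Krtap2-4, with 10 control reads.

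Reads remained on Krtap3-2 and Krtap17-1. Krtap3-2 was counted at 7, 4 and 11 reads in the IMQ libraries, against 44, 44 and 51 in the controls. It was 4.38-fold lower in the IMQ group by pooled reads, with a 95% counting interval (exact) of 2.78 to 7.21. Its log2 fold change was -2.12 ± 0.40 (approximate SE; adjusted p = 0.00253, quasi-likelihood test of edgeR, Benjamini-Hochberg adjustment over all genes tested). For each edgeR fold change, this SE is the absolute log2 fold change divided by the square root of the test's F statistic. It restates the test and is no separate measure of spread.

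Krtap3-2 thus held 22 of the 25 member reads in the IMQ group. Krtap3-3, with the same coding sequence, had 0 reads there and was at least 21.2-fold lower. Of the 100-base stretches of Krtap3-2, 25.1% also occur in Krtap3-3, and its remaining stretches were found in no other gene of the annotation. Krtap17-1 was counted at 3, 0 and 0 reads in the IMQ libraries and was 26.5-fold lower by pooled reads (exact 95% counting interval 8.86 to 131). Its log2 fold change was -4.62 ± 0.74 (adjusted p = 0.00108, edgeR), a size that rests on the 3 reads of IMQ library 1.

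The test across all genes could be made for the better counted members only. A filter on low counts left 15976 genes, among them 12 of the 31 members, and 12 of these 12 were called lower (edgeR, adjusted p from 0.000699 to 0.00632). A gene was called where its adjusted p was under 0.05 and its log2 fold change past 0.58 in either direction. Of all genes tested, 26.9% were called lower and 24.1% were called higher. These members passed the filter through their control reads, so the calls on them add nothing to the counts above. The other 19 members were too sparse for the filter.

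LYS skin was compared with control skin in the same way. The 31 members summed to 4, 1 and 8 reads in LYS libraries 1, 2 and 3, or 0.265 ± 0.201 CPM, and the control mean was 133 times as high (200.4 times in FPKM, and 210 times in CPM without LYS library 3). Again Krtap3-2 set the ratio, since the other 30 members had 1 read in the LYS group. All 3 LYS libraries lay below all 3 controls. As in the IMQ group, 29 of 31 members had 0 reads in every library, against 1.35% of the 21488 genes. For 30 of 31 members all control values were above all LYS values, where 21.6% of the 21488 genes were ordered that way. Both comparisons use the same control libraries, so their values are given side by side and are not independent.

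Krtap8-1 in LYS skin was below the controls by at least 97.3-fold, Krtap7-1 by at least 60.3-fold and Krtap11-1 by at least 54.3-fold. Over the 29 members at 0 the bound ran from 2.62 to 97.3. Krtap3-2 was counted at 4, 0 and 8 reads, 9.11-fold below the control group by pooled reads (exact 95% counting interval 5.05 to 18.1), with a log2 fold change of -3.15 ± 0.67 (adjusted p = 0.0119, edgeR). Krtap17-1 had 1 read, in LYS library 2, and was 90.5-fold lower with a wide exact counting interval (15.9 to 3604). The edgeR fit tested 16003 genes and called 12 of the 12 members it tested lower, where 12.9% of all genes tested were called lower and 15.1% were called higher. Again, the members had passed the filter through their control reads.

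**Figure D4:**
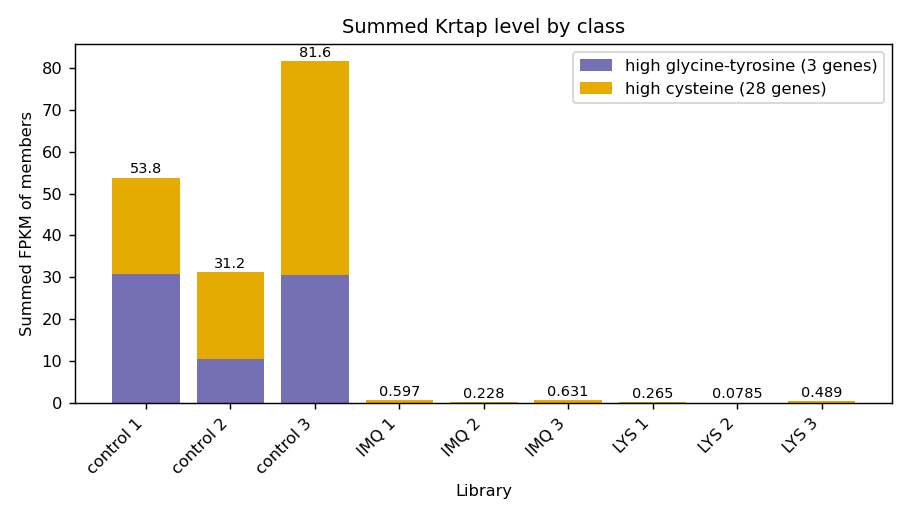
Bars give the summed FPKM of the Krtap members in each library, split into the high glycine-tyrosine class (3 genes) and the high cysteine class (28 genes), with the total above each bar. The controls reach 53.8, 31.2 and 81.6, and the 6 IMQ and LYS libraries stay at 0.631 or less.

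LYS skin was compared with IMQ skin to ask whether the soup moved these genes back towards the control level. Both groups were near 0, so none of the 31 members passed the filter in these 6 libraries. A return to the control level would have been seen, since Krtap8-1, with 371 control reads, had 0 in LYS. Small differences between IMQ and LYS were not detectable at this depth. Over the 3 libraries, 29 members were at 0 in both groups, for which no fold can be given. Krtap3-2 had 22 reads under IMQ and 12 under LYS, and its ranges of 4 to 11 and 0 to 8 reads overlapped. Krtap17-1 had 3 reads and 1 read. The summed CPM ranges of the groups overlapped too, from 0.298 to 0.806 in IMQ and from 0.0565 to 0.459 in LYS.

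With all 9 libraries in 1 fit, 12 members passed the filter, but 10 of them had 0 reads in both groups, so only Krtap3-2 and Krtap17-1 could be compared. In LYS against IMQ the log2 fold change of Krtap3-2 was -1.04 ± 0.77 (adjusted p = 0.338, edgeR) and that of Krtap17-1 was -1.46 ± 1.45 (adjusted p = 0.480, edgeR). Across all genes, edgeR tested 15460 and called 0% lower and 0% higher, while 5435 genes had an unadjusted p under 0.05, the smallest adjusted p was 0.0591, and DESeq2 called 3313. Neither of these fits tested a Krtap member.

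Other genes of the follicle were read from lists of genes, to place the members among them. The hair keratins, the filament proteins that the keratin-associated proteins surround, fell too. Of 14 hair shaft keratin genes in the table, 12 could be tested in IMQ against control, of which 10 were called lower and 1 (Krt84) higher (median log2 fold change -4.45, against -0.06 over all genes tested). Krt35, the most abundant, was counted at 2895, 2062 and 4232 reads in the controls and 0 in every IMQ library, at least 2121-fold lower. Krt31 was counted at 63, 29 and 216 reads in the controls and 0 in both other groups. Krt85 was not analysed here.

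Krt84, a keratin of nail and tongue as well as hair, ran the other way. It was counted at 14, 22 and 19 reads in the controls, 134, 192 and 181 in IMQ and 63, 54 and 145 in LYS, and was called higher in both groups (log2 fold changes 3.74 ± 0.31 and 2.58 ± 0.43, adjusted p = 4.60e-05 and 0.00483, edgeR). In LYS against control, 11 hair keratins were called lower and 1 higher of 12 tested (median -6.80, or -5.43 with genes at 0 set to their bounds, against -0.01 over all genes).

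The inner root sheath encloses the growing shaft and is a separate set of cells. Of 9 genes of its list tested, 8 were called lower and 0 higher in both comparisons with control (median log2 fold changes with genes at 0 set to their bounds -9.42 in IMQ and -9.28 in LYS). Krt71 was counted at 24740, 16723 and 35876 reads in the controls, 1, 5 and 0 in IMQ and 2, 1 and 1 in LYS. Tchhl1 was not called (log2 fold change 0.51 ± 0.34, adjusted p = 0.228, edgeR, in IMQ against control). The summed FPKM of this list was 0.330% of the control level in IMQ and 0.309% in LYS. The controls stood in the same order for this list, for the hair keratins and for the Krtap members, with library 3 highest and library 2 lowest in summed FPKM. That order was not particular to hair genes: it held in 9 of the 13 lists, among them those of the epidermis, melanocytes and neutrophils.

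The remaining shaft genes were split. Of 10 other hair shaft proteins, 7 were called lower and 3 higher in IMQ against control (median log2 fold change -3.46). S100a3, a calcium-binding protein of the cuticle, was counted at 402, 222 and 860 reads in the controls and 0, 5 and 2 in IMQ, and Padi3, which modifies shaft and sheath proteins, at 1020, 634 and 1429 against 10, 13 and 2. Lypd3, Tgm3 and Padi1, which the epidermis also expresses, were called higher. Tgm3 was counted at 626, 497 and 766 reads in the controls and 13382, 12128 and 11985 in IMQ. In LYS against control, 6 of these 10 were called lower and 2 (Tgm3 and Lypd3) higher (median -2.87).

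The transcription factors of shaft cells were split in the same manner, with 6 of 12 called lower and 5 higher in IMQ against control (median log2 fold change -0.76), and 7 and 3 in LYS against control (median -1.09). Hoxc13, which drives hair keratin genes, was counted at 543, 479 and 870 reads in the controls, 27, 42 and 37 in IMQ and 34, 19 and 10 in LYS (log2 fold change -3.62 ± 0.33 in IMQ, adjusted p = 7.53e-05, edgeR). Lef1, Msx1 and Msx2 were also called lower in both groups. Foxn1, the nude gene, was counted at 272, 152 and 383 reads in the controls and 534, 695 and 464 in IMQ, and was called higher there. Ovol1 and Prdm1, which the differentiating epidermis also uses, were called higher in both groups.

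Lists of the surrounding cells showed how far the rest of the skin moved. Of 10 outer root sheath and bulge genes, 7 were called lower and 1 (Col17a1) higher in IMQ against control, with a median log2 fold change of -2.13, and 5 lower and 2 (Col17a1 and Nfatc1) higher in LYS, with a median of -0.93. The dermal papilla is the group of signalling cells at the follicle base. Of its 10 genes, 9 were called lower and 1 (Crabp1) higher in IMQ (median -3.25), and 7 lower and Crabp1 higher in LYS (median -2.24). Corin, a dermal papilla protease, was counted at 397, 387 and 469 reads in the controls, 5, 9 and 7 in IMQ and 8, 6 and 12 in LYS. Of 8 melanocyte genes, 7 were called lower in IMQ (median -2.97) and 6 in LYS (median -2.86). Proliferation genes were called lower for 10 of 10 tested in IMQ (median -1.02) and 8 of 10 in LYS (median -0.86). Among them were Mki67 and Pcna (log2 fold changes -1.17 and -0.89 in IMQ). These are RNA values of whole skin. For the proteins the paper reports the reverse, with Ki67 and PCNA raised in IMQ skin and reduced by the soup. The difference was not tested.

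Of the 10 interfollicular epidermis genes, 9 were called higher and 1 (Krt2) lower in IMQ against control (median log2 fold change 2.98), and 8 and 1 in LYS (median 1.79). This list summed to 3525, 2994 and 5455 FPKM in the controls, so the defining genes of the labelled tissue were present. Neutrophil genes were called higher for 7 of 7 tested in IMQ (median 5.73) and 6 of 6 in LYS (median 4.46). S100a8 and S100a9 held most of that list's summed FPKM, at 14290 and 21920 of 36390 in IMQ. Ly6g, with 2, 16 and 6 reads in IMQ, was too sparse to test. Dermal fibroblast genes were called lower for 10 of 10 in IMQ (median -2.10) and 6 of 10 in LYS (median -1.05). Skeletal muscle genes were called lower for 7 of 8 (median -1.70) and 6 of 8 (median -1.02), and adipocyte genes for 8 of 8 (median -3.11) and 7 of 8 (median -1.60). As shares of the control level, the summed FPKM of the IMQ and LYS groups was 17.6% and 46.5% for fibroblast genes, 22.7% and 47.2% for muscle genes, and 31.6% and 43.0% for dermal papilla genes. Crabp1 carried most of what was left of the dermal papilla sum, and the other 9 genes lay at 8.87% and 20.1%. For adipocyte genes the summed FPKM was 4363 ± 1674 in the controls, 451.5 ± 355.3 in IMQ and 1351 ± 758.2 in LYS (SD, n = 3). The hair keratins lay at 4.79% and 2.89% of the control level, most of it Krt84, and the other 13 genes at 0.987% and 0.739%. The Krtap members fell from 55.6 ± 25.2 FPKM in the controls to 0.485 ± 0.223 in IMQ and 0.277 ± 0.205 in LYS. Between LYS and IMQ, edgeR called none of the 100 list genes tested, as of all genes, while DESeq2 called 37 of them, against 21% of all genes it tested. With all 9 libraries in 1 fit, edgeR called 31 of 124 list genes, against 18.5% of all genes. Without a filter on low counts it called 32 of 121, against 8.83%.

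**Figure D5:**
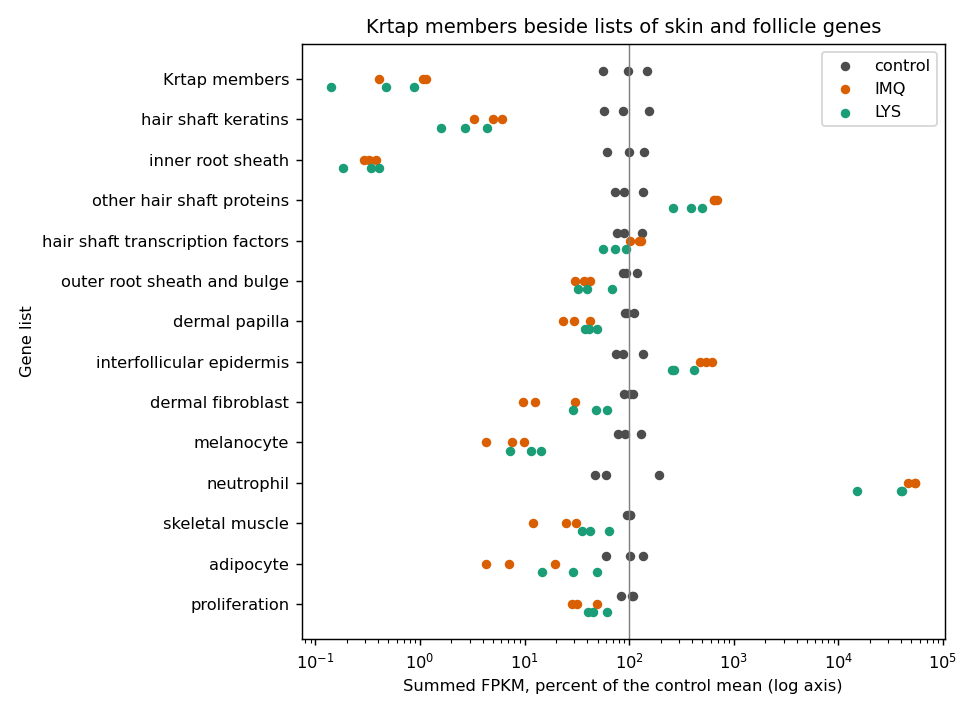
Each point is a library, coloured by group, and gives the summed FPKM of the Krtap members or of a gene list as a percentage of the control mean (log axis). In IMQ and LYS, the Krtap members (at most 1.14%) and the inner root sheath (at most 0.404%) lie at the far left. The hair shaft keratins (1.59% to 6.13%) overlap the lowest melanocyte and adipocyte points. The neutrophil list, most of it S100a8 and S100a9, lies at the far right.

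These are libraries of whole skin, in which fewer cells of a type and less RNA per cell cannot be told apart. The levels of the epidermis, neutrophil, fibroblast, muscle and fat lists moved with the group, as the values above show, and their part in the Krtap result was not tested. All groups rest on 3 libraries each. The study calls them biological replicates, but the labels do not tie a library to a mouse.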

How the data were processed

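RNA of mouse back skin was sequenced in 9 libraries (3 control, 3 IMQ, 3 LYS). The submitters' processing notes name HISAT2, HTSeq 0.13.5 and the GRCm38 genome, without strand settings. The authors deposited a table with raw read counts per gene and the FPKM made from them. FPKM used the exon length of GENCODE M21 for all 40 Krtap rows. No column was left without a sample.

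Counts were scaled with TMM and tested with edgeR 4.0.16 (filterByExpr, quasi-likelihood test) in R 4.3.3, with the 6 libraries of each comparison and no replicate block, at the thresholds given above. The procedure was tested on simulated data. Changes were planted in better counted genes only, so that test does not cover members without reads in a group. CPM used all 9 libraries. Counting intervals (95%) are exact. No libraries of a group were copies of each other: their counts differed with a chi-square of 18.5 to 110 per degree of freedom.

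Members and the 13 gene lists were chosen with earlier results of these data known. The genes named in the text are the 8 members of the high cysteine class with the highest mean FPKM over all libraries, all 3 of the other class, the highest of each family, those at the edges of the rule and those with reads in LYS, besides genes of the lists. Krtap4-2, Krtap5-4 and Krtap10-10 were named after their values were seen. Promoters are from RefSeq (GRCm38.p6), and 25 of 31 members matched by symbol. Coding sequences and shared 100-base stretches are from GENCODE M21 (Biopython 1.88). Alternatives were DESeq2 1.42.0, other scalings, no filter, all 9 libraries in 1 fit, a log2 fold change over 1, a replicate block, FPKM in place of CPM, a minimum of 100 reads and leaving out each library.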

Additional observations from a re-analysis of the deposited data

How the results depend on the processing

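Of the 12 members tested, 10 had 0 reads in every IMQ and LYS library, so no setting could turn their direction. The alternatives bear on Krtap3-2 and Krtap17-1 only, which were called lower in all 13 alternatives of each comparison with control. The log2 fold change of Krtap3-2 ran from -2.57 to -1.85 in IMQ and from -4.04 to -2.54 in LYS, and its largest adjusted p was 0.0163 (all 9 libraries in 1 edgeR fit) and 0.0497 (edgeR without control library 1). That of Krtap17-1 ran from -8.05 to -4.11 in IMQ and from -8.12 to -5.60 in LYS. The lowest values came without IMQ library 1 and LYS library 2, which held its only reads there, and are no measure of size. The number of members called lower (12 in each comparison) grew where more members could be tested: DESeq2 called 28 in both comparisons (20.7% of all genes in IMQ and 11.6% in LYS), and edgeR without a filter on low counts called 28 in IMQ and 27 in LYS against control (16.9% and 8.1% of all genes). Leaving out 1 library gave 12 to 17 and 12 to 16, where 22.8% to 28.8% and 6.6% to 14.2% of all genes were called lower. The median fitted log2 fold change of tested members was -7.77 for IMQ and -7.85 for LYS against control (-4.55 and -4.73 with genes at 0 set to their bounds). It was -5.28 and -5.78 in DESeq2, -6.17 and -6.24 without the filter, and between -7.67 and -6.96 and between -7.77 and -7.05 with 1 library left out, the value nearest 0 coming without control library 3 in both.

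Leaving counts unscaled beyond library totals moved the median log2 fold change of all genes by -0.45 in IMQ and -0.14 in LYS against control. Under the 3 other scalings, 0 of the called list genes changed direction. The calls of Crabp1 and Gata3 in IMQ and of Krt10 and Nfatc1 in LYS were lost with library totals, and those of Dpt and Mitf in LYS with RLE scaling.

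The ratio of the control to the IMQ summed level was 61.7 in CPM and 114 in FPKM, and 47.5 to 77.8 with a library left out. The ratio to the LYS level was 133 in CPM and 200.4 in FPKM, and 95.4 to 210 with a library left out, the highest without LYS library 3. A minimum of 100 summed reads left 8 members, of which 6 were at 0 in all 6 IMQ and LYS libraries. Without control library 3, 26 members reached 10 reads. Non-overlap was met by 30 or 31 members with a library left out, and by 32.4% to 35.7% of all genes for IMQ and 24.1% to 27.5% for LYS. The leave-one-out settings of the summed level, of non-overlap and of membership were chosen after seeing the data.

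Across all genes, LYS against IMQ depended on the setting. The count was 0, but 3313 with DESeq2, 2419 without the filter, 3040 with all 9 libraries in 1 fit, 1873 without IMQ library 1 and 4262 without LYS library 1, so it ran from 0 to 4262 with a library left out, and the cause was not tested. Without LYS library 1, 36 of 100 list genes were called, against 26.8% of all genes. For LYS against control the count was 4476, with 2910 at an absolute log2 fold change over 1, and 2579 to 5072 with a library left out. The lower counts came without control library 1 (2579), control library 2 (2947) or LYS library 2 (2926).

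Replicate numbers are shared across groups. Correlations of deviations between same-numbered samples ran from -0.46 to 0.20. With 3 libraries in a group, these values cannot decide whether samples were paired. A replicate block left 12 members called in IMQ and in LYS against control, with 26.6% and 8.78% of all genes called lower, against 26.9% and 12.9% without it. In LYS against IMQ it tested no member. At this depth, a member at 0 in a group is limited to 3 reads over 3 libraries.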
